A study of Arabidopsis thaliana with 12 samples.

Results

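Chlorophyll is dismantled in senescing and stressed leaves by a short linear pathway, and the transcripts of 7 of its genes were followed here in Arabidopsis thaliana shoots grown with or without sulfate. The genes were taken by locus from the deposited table, which lists 32833 loci, and all 7 were found: SGR1 (AT4G22920) and SGR2 (AT4G11910), NYC1 (AT4G13250) and NOL (AT5G04900), PPH (AT5G13800), PAO (AT3G44880) and RCCR, also called ACD2 (AT4G37000). The members are given by locus, and the rule sets no threshold on a measured value. Shoots of the wild type Col-0 and of cdk8-1, 1 mutant line of the Mediator kinase gene CDK8 in the same species, were harvested after 10 days on agar plates that held 1.5 mM magnesium sulfate or 0 mM. In the plates without sulfate, magnesium was supplied as its chloride. Each of the 4 groups (Col-0 with sulfate, Col-0 without sulfate, cdk8-1 with sulfate and cdk8-1 without sulfate) had 3 libraries of total RNA, and all plants shared the same chamber, light regime and basal medium.

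Chlorophyll b is first converted towards chlorophyll a, a step that begins with the chlorophyll b reductases NYC1 and NOL. The stay-green proteins SGR1 and SGR2 belong to the Mg-dechelatase family, which removes magnesium and leaves pheophytin, and PPH, pheophytin pheophytinase, cuts off the phytol tail. PAO, pheophorbide a oxygenase, then opens the ring, and RCCR, red chlorophyll catabolite reductase, reduces the product, whose derivatives are finally stored in the vacuole as colourless phyllobilins. In Arabidopsis, loss of SGR1, NYC1 or PPH keeps leaves green during senescence, and loss of PAO or RCCR causes cell death from light-absorbing intermediates.

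The upstream sequences shown are those of SGR1, SGR2 and NYC1, the 3 of the 7 genes with the largest rises without sulfate in Col-0. They were read from RefSeq TAIR10.1, whose gene models gave whole read numbers for nearly all loci of the deposited table; the build the authors used is not given in the sources used here. Each line ends at the base before the annotated gene start and reads 5′ to 3′. SGR1 lies at chr4:12016420-12018643 on the minus strand, and the 185 bases shown (chr4:12018644-12018828) stop where an exon of the next gene begins. SGR2 lies at chr4:7156150-7158047 on the plus strand, with the 250 bases shown at chr4:7155900-7156149. NYC1 lies at chr4:7684156-7687006 on the minus strand, with the 250 bases shown at chr4:7687007-7687256. Capitals mark the matches, on either strand, of 4 short motifs: the G-box CACGTG, the ABA-response core ACGTG, the sulfur-response core GAGAC and the W-box core TTGAC.
SGR1: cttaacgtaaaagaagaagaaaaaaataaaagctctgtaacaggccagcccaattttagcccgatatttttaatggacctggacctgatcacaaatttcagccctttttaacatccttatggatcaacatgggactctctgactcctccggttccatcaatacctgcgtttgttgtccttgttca
SGR2: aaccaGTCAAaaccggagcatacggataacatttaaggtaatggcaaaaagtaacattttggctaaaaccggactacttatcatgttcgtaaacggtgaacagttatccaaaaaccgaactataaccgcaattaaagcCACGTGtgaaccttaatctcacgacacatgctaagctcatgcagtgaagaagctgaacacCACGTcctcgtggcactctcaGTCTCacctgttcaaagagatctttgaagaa
NYC1: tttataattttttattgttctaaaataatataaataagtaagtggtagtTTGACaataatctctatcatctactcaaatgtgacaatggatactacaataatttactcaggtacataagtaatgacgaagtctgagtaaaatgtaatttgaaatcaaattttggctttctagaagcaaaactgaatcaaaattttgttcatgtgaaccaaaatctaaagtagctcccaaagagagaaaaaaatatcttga

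None of the 4 motifs occurs in the 250 bases before SGR1 or before PPH. SGR2 has all 4: a G-box 112 to 107 bases before its start, which itself holds the ABA-response core on both strands, a separate ABA-response core 52 to 48 bases before it, the sulfur-response core 31 to 27 bases before it and the W-box core 245 to 241 bases before it. NYC1 has the W-box core alone, 201 to 197 bases before its start. Among the others, NOL has a G-box 21 to 16 bases before its start, and PAO and RCCR have the sulfur-response core, 63 to 59 and 16 to 12 bases before theirs. The window of NOL has 246 of its 250 bases in exons of other genes, and that of PAO all 250. The NOL and PAO matches thus lie inside exons of neighbouring genes. Across 27443 protein-coding genes, the same 250-base window holds the G-box in 6.5%, the ABA-response core in 22.9%, the sulfur-response core in 25.8% and the W-box core in 44.9%, so the last 3 are common. A match describes letters in a window and was not tied to any binding.

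Levels are in TPM, a unit that divides reads by gene length and by the total of each library, so levels can be set side by side between genes. The libraries held 17441215 to 25175871 recovered reads in genes, where 1 read in a 1 kb transcript was worth 0.0710 to 0.0962 TPM. Changes are log2 fold changes of TPM + 1 from limma, with Benjamini-Hochberg adjustment over the 19127 genes that averaged at least 1 TPM. All 7 genes passed that filter. Without sulfate the median gene stood 0.46 (Col-0) and 0.45 (cdk8-1) higher on the log2 scale, so each sulfate response is also given relative to the median gene. The targeted gene CDK8 averaged 22.8 ± 1.71 TPM in Col-0 with sulfate and 33.2 ± 0.451 TPM without, against 3.99 ± 1.02 and 5.49 ± 0.514 TPM in cdk8-1 (mean ± SD, n = 3 each), lower in the mutant on both plates (limma, adjusted p = 1.53e-06 and 5.73e-08). Leaf markers were the dominant ones with sulfate, and 3 leaf genes summed to 21831 to 24846 TPM there, but to 997 to 1086 TPM in the wild type and 2906 to 3464 TPM in the mutant without it. In 1 library, cdk8-1 with sulfate replicate 1, 5 seed storage genes summed to 155 TPM, against 5.06 TPM or less in every other library. The 4 root markers summed to 678 to 818 TPM in Col-0 with sulfate and 306 to 344 TPM without. In cdk8-1 they summed to 913 to 1228 TPM with sulfate and 648 to 1027 TPM without. Nearly all of each sum was 1 gene, PYK10, while CASP1, EXPA7 and COBL9 reached at most 12.9, 1.29 and 1.23 TPM in any library. The part of the seed and root markers in the results was not tested. Beside each call on the 7 genes that changes without the seed-bearing library, the value without it is given.

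Which breakdown genes respond to sulfate withdrawal in the wild type was asked first. In Col-0, transcripts of 5 of the 7 genes (SGR1, SGR2, NYC1, PPH and PAO) rose without sulfate, NOL fell, and RCCR did not pass the test. For comparison, 56.1% of all tested genes were called higher and 28.8% lower in the same contrast. Taken on TPM + 1, the rises of the 5 ran from 3.07-fold for PAO to 29.55-fold for SGR2. As ratios of mean TPM, with nothing added, they ran from 3.11 for PAO to 60.9 for SGR2. After median-of-ratios scaling, which removes the shift of the median gene, the same 5 were higher and both NOL and RCCR lower, against 41.9% and 39.1% of all genes. Since most of the transcriptome was called, the counts of members are read against these shares, and sizes and directions follow by step. In bulk tissue, fewer cells of a type and less RNA per cell cannot be told apart.

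The stay-green genes had the largest rises of the 7. SGR1 stood at 11.3, 12.2 and 12.7 TPM in the 3 Col-0 libraries with sulfate and at 137, 132 and 134 TPM in the 3 without. The groups were far apart and replicates within each differed little, and the rise was 3.38 ± 0.06 (log2, SE), or 2.92 above the median gene (adjusted p = 2.44e-13). SGR2 was barely transcribed with sulfate, at 0.612, 1.3 and 0.756 TPM, which rest on 10, 20 and 12 reads, and reached 51.6, 55.1 and 56.1 TPM without it, on 762 to 1034 reads. It rose by 4.89 ± 0.14 on the log2 scale, 4.43 above the median gene (adjusted p = 6.75e-12). Only 1.03% of tested genes had a larger rise than SGR2, and 3.39% a larger rise than SGR1. The start level of SGR2 lies near the added value of 1, so its fold depends on that value: the log2 change was 5.84 with 0.1 added and 3.33 with 5 added. SGR1 and SGR2 are 79.6% identical over 843 aligned transcript bases and share no identical window of 100 bases. The tandem neighbour of SGR2, AT4G11911, annotated as a STAY-GREEN-like protein 39 bases away, had 0 to 5 reads in every library.

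The 2 chlorophyll b reductase genes went in opposite directions. NYC1 stood at 81.8, 90.1 and 88.1 TPM with sulfate and at 375, 414 and 393 TPM without, a rise of 2.17 ± 0.09 (log2, SE), 1.71 above the median gene (adjusted p = 1.94e-10). NOL stood at 35.0, 36.4 and 37.4 TPM with sulfate and at 17.2, 15.3 and 17.3 TPM without, so every library without sulfate lay below every library with it. The same was true of 29.0% of all tested genes. NOL fell by 1.08 on the log2 scale (SE 0.08), to 1.54 below the median gene (adjusted p = 3.95e-08).

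The later enzymes PPH and PAO rose as well. PPH rose from 33.3, 34.7 and 41.6 TPM to 153, 151 and 146 TPM, by 2.01 ± 0.08 on the log2 scale or 1.55 above the median gene (adjusted p = 8.04e-11). PAO rose from 59.7, 61.2 and 59.3 TPM to 174, 195 and 191 TPM, by 1.62 ± 0.07 or 1.16 above the median gene (adjusted p = 1.11e-10). For both genes the groups did not overlap, beside 56.5% of all tested genes that were higher without overlap. RCCR, the last enzyme of the 7, stood at 49.6, 50.2 and 50.5 TPM with sulfate and 46.7, 41.7 and 42.7 TPM without. Its log2 difference was -0.19 ± 0.10 (adjusted p = 0.0862), or -0.65 relative to the median gene, and it was called lower after scaling (-0.65, adjusted p = 5.35e-05). RCCR shares 11.1% of its exon bases with other annotated genes, PAO 0.5% and the remaining members none.

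**Figure D1:**
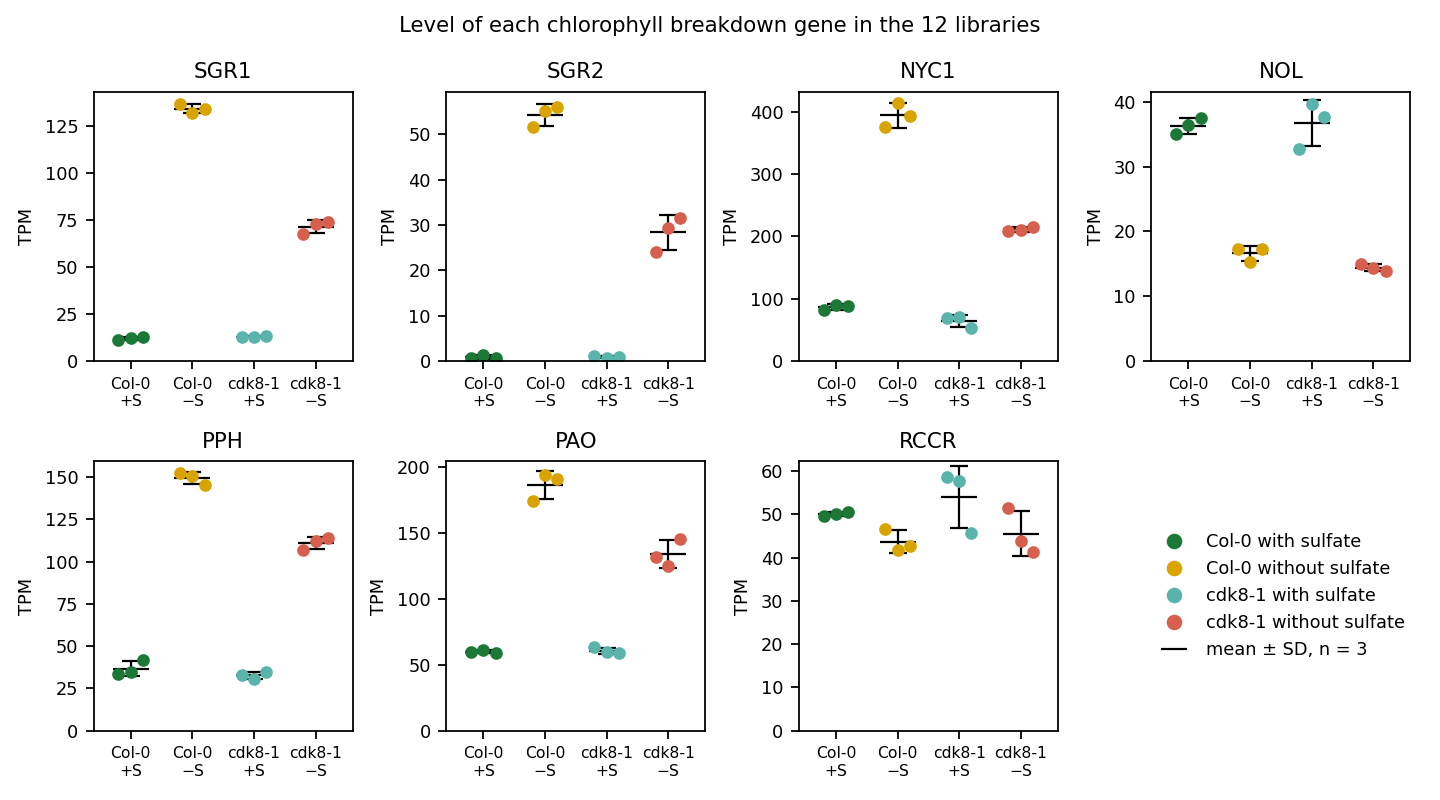
Level of each gene in TPM (vertical axis, from 0, one scale per gene) in the 12 libraries, grouped by genotype and by sulfate supply (+S, with; −S, without); points are libraries and black marks the mean ± SD of 3. SGR1, SGR2, NYC1, PPH and PAO are high without sulfate and higher in Col-0 than in cdk8-1 there, NOL is low without sulfate in both genotypes, and RCCR stays between 41.3 and 58.7 TPM in all libraries.

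The same comparison within cdk8-1 asked whether the response persists when CDK8 is mutated. In the mutant, SGR1, SGR2, NYC1, PPH and PAO again rose and NOL and RCCR fell, beside 56.9% of all genes called higher and 24.7% lower (38.7% and 37.1% after scaling, with the same 7 calls). SGR1 stood at 12.7, 12.8 and 13.4 TPM with sulfate and 67.4, 72.8 and 74.1 TPM without, a rise of 2.38 ± 0.06 on the log2 scale, 1.93 above the median gene (adjusted p = 7.88e-12). SGR2 went from 1.13, 0.794 and 0.872 TPM to 24.2, 29.5 and 31.7 TPM, a rise of 3.92 ± 0.14, or 3.48 above the median gene (adjusted p = 9.15e-11). Both stay-green genes therefore left the narrow range they had with sulfate, but stopped well short of their Col-0 levels.

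NYC1 stood at 68.7, 70.4 and 52.6 TPM in cdk8-1 with sulfate and 208, 211 and 216 TPM without, a rise of 1.72 ± 0.09 (log2, SE; adjusted p = 2.76e-09). NOL went from 32.7, 39.6 and 37.7 TPM to 15.0, 14.4 and 13.9 TPM and fell by 1.28 on the log2 scale (SE 0.08, adjusted p = 1.12e-08). Both genes kept their groups apart, beside 57.3% of all tested genes higher and 25.3% lower without overlap. For NYC1 the third library with sulfate was the lowest of its group. PPH went from 33.2, 30.6 and 34.6 TPM to 107, 112 and 114 TPM, a rise of 1.73 ± 0.08 (adjusted p = 5.71e-10). PAO went from 63.4, 59.5 and 59.0 TPM to 132, 125 and 145 TPM, a rise of 1.13 ± 0.07 (adjusted p = 5.13e-09). Neither gene had overlapping groups. Relative to the median gene these 4 changes were 1.27 for NYC1, -1.73 for NOL, 1.28 for PPH and 0.68 for PAO. RCCR stood at 58.7, 57.7 and 45.8 TPM with sulfate and 51.5, 43.9 and 41.3 TPM without, and these ranges overlap. Its decrease of 0.24 passed the test narrowly (log2 -0.24 ± 0.10, adjusted p = 0.0419) and was not called when any of 7 libraries was left out, among them the seed-bearing replicate 1 (-0.18, adjusted p = 0.154) and replicate 3 without sulfate (-0.17, adjusted p = 0.162).

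**Figure D2:**
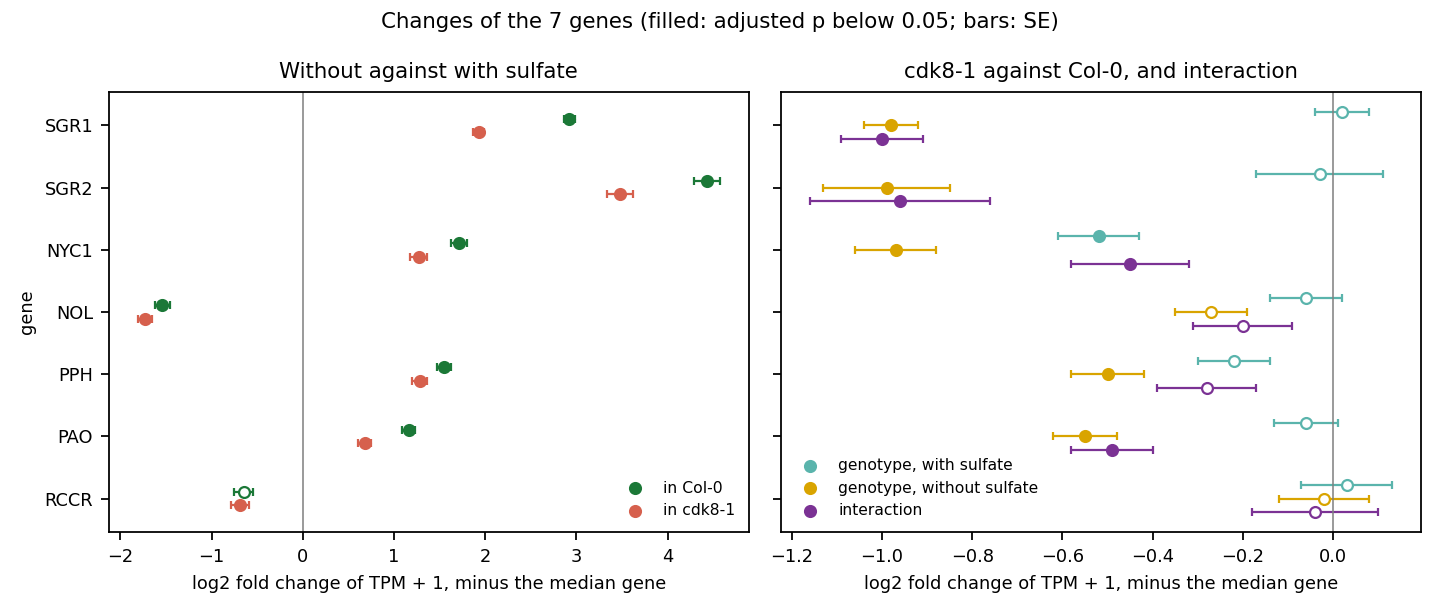
Log2 fold changes of TPM + 1 (horizontal axis), less the change of the median gene, for the 7 genes (vertical axis): left, without against with sulfate in each genotype; right, cdk8-1 against Col-0 on each plate and the difference between the 2 sulfate responses. Bars are SE and filled points have an adjusted p below 0.05 on the deposited scale; for SGR1, SGR2, NYC1, PPH and PAO the left panel has the Col-0 point to the right of the cdk8-1 point.

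With sulfate, the question was whether the mutant differs before any deprivation. Of the 7 genes only NYC1 was called, lower in cdk8-1 (86.6 ± 4.33 TPM in the wild type and 63.9 ± 9.82 TPM in the mutant, mean ± SD, n = 3), while 4.84% of all genes were called lower. Its log2 difference of -0.44 ± 0.09 (adjusted p = 0.00851) was -0.31 without cdk8-1 with sulfate replicate 3, the lowest library, and -0.50 without the seed-bearing replicate 1 (adjusted p = 0.0110). It was not called when only these 2 groups were fitted (adjusted p = 0.0776). SGR1 (0.10 ± 0.06, adjusted p = 0.332) and SGR2 (0.04 ± 0.14, adjusted p = 0.873) did not pass, nor did NOL, PPH, PAO or RCCR, whose log2 differences lay between -0.15 and 0.10.

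Without sulfate the mutant had lower levels of 5 of the 7 genes, while 15.0% of all tested genes were called lower. The stay-green genes and NYC1 stood at about the same fraction of the wild type: 53.2% for SGR1, 52.4% for SGR2 and 53.6% for NYC1. SGR1 was lower by 0.90 on the log2 scale (-0.90 ± 0.06, adjusted p = 3.36e-07), SGR2 by a difference of -0.92 ± 0.14 (adjusted p = 0.000252) and NYC1 by -0.89 ± 0.09 (adjusted p = 9.38e-06). Between 4.80% and 4.95% of all tested genes were lower by more than these 3. In all 3 the highest cdk8-1 library lay far below the lowest Col-0 library: 74.1 against 132 TPM for SGR1, 31.7 against 51.6 TPM for SGR2 and 216 against 375 TPM for NYC1. PPH stood at 74.2% and PAO at 71.8% of the Col-0 level, with differences of -0.43 ± 0.08 (adjusted p = 0.000848) and -0.48 ± 0.07 (adjusted p = 9.11e-05) and no overlap of libraries. NOL, at 86.9%, gave -0.19 ± 0.08 and did not pass (adjusted p = 0.0782), although its libraries did not overlap either. Of all tested genes, 22.2% were lower in cdk8-1 without overlap in this comparison. NOL was called lower without the seed-bearing library (-0.19, adjusted p = 0.048), with quantile scaling (-0.25, adjusted p = 0.0269) and with median-of-ratios scaling (-0.26, adjusted p = 0.0278), which makes 6 of 7 lower against 19.0% of all genes. RCCR, at 104.3%, did not pass (0.06 ± 0.10, adjusted p = 0.692).

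The difference between the 2 sulfate responses was tested directly as the interaction of genotype and sulfate supply. It was negative in 4 of 7 genes that passed, against 12.2% of all tested genes, so SGR1, SGR2, NYC1 and PAO rose less in cdk8-1 than in Col-0. The log2 rise was smaller by about 1 unit for SGR1 (interaction -1.0 ± 0.09, adjusted p = 7.91e-06), which is a factor of 2.00. For SGR2 it was -0.96 ± 0.20 (adjusted p = 0.00386), for PAO -0.49 ± 0.09 (adjusted p = 0.00195) and for NYC1 -0.45 ± 0.13 (adjusted p = 0.0232). For SGR2, limma voom on the recovered reads, which weighs the few reads with sulfate, gave -1.07 and no call (adjusted p = 0.123). The NYC1 interaction was lost with quantile scaling (-0.35, adjusted p = 0.0686), without the seed-bearing library (-0.39, adjusted p = 0.0549), without cdk8-1 with sulfate replicate 2 (-0.37, adjusted p = 0.0581) and without Col-0 without sulfate replicate 2 (-0.41, adjusted p = 0.0598). The PPH interaction of -0.28 ± 0.11 did not pass (adjusted p = 0.0795), but did without Col-0 with sulfate replicate 3, the highest PPH library of that group (-0.38, adjusted p = 0.00842). NOL (-0.20 ± 0.11, adjusted p = 0.218) and RCCR (-0.04 ± 0.14, adjusted p = 0.847) did not pass.

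The 2 pairs of related genes were compared within each library, where no scaling between libraries enters. The log2 ratio of SGR1 to SGR2 was 4.2, 3.23 and 4.07 in Col-0 with sulfate and 1.41, 1.26 and 1.26 without. In cdk8-1 it was 3.49, 4.01 and 3.94 with sulfate and 1.48, 1.3 and 1.23 without. The transcript of SGR1 was thus 9.38 to 18.4 times that of SGR2 with sulfate and 2.34 to 2.79 times without, over both genotypes. With sulfate the ratios rest on 10 to 20 SGR2 reads per library. Their mean log2 value there was 2.80 in Col-0 and 2.86 in cdk8-1 when taken on TPM + 1. The size of the decrease given next depends on these few reads. The decrease in the mean ratio was 2.52 log2 units in Col-0 (from 3.83 ± 0.53 to 1.31 ± 0.09, second minus first -2.52) and 2.47 in cdk8-1 (from 3.81 ± 0.28 to 1.34 ± 0.13, -2.47), mean ± SD, n = 3; each gave p = 0.1 in a two-sided exact permutation test, the smallest p that 3 against 3 allows. Between genotypes the ratio differed by -0.02 with sulfate and 0.03 without (exact permutation p = 0.9 and 0.7), although SGR1 and SGR2 themselves were both lower in cdk8-1 without sulfate.

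The log2 ratio of NYC1 to NOL moved the other way. It was 1.22, 1.31 and 1.23 in Col-0 with sulfate and 4.44, 4.76 and 4.51 without. In cdk8-1 it was 1.07, 0.83 and 0.48 with sulfate and 3.79, 3.87 and 3.96 without. The mutant libraries lay below those of Col-0 on both plates and did not overlap them, with mean differences of -0.46 and -0.70 (exact permutation p = 0.1 in each, n = 3 against 3, the smallest possible). NYC1 thus went from 1.40 to 2.47 times NOL with sulfate to 13.9 to 27.0 times NOL without it.

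**Figure D3:**
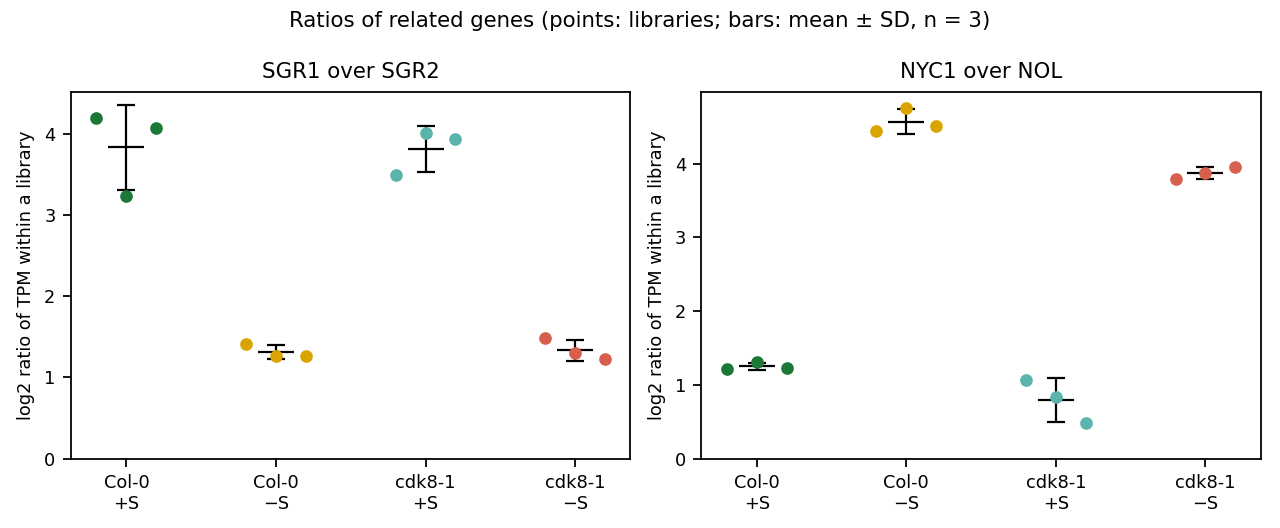
Log2 ratio of TPM within a library (vertical axis) for SGR1 over SGR2 and for NYC1 over NOL in the 4 groups; points are libraries and black marks the mean ± SD, n = 3. The SGR1 over SGR2 ratio is near 3.8 with sulfate and 1.3 without in both genotypes, and the NYC1 over NOL ratio lies lower in cdk8-1 than in Col-0 on both plates.

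Ordered by level, the 7 genes stood differently on the 2 plates. With sulfate, Col-0 had NYC1 highest (86.6 TPM), then PAO (60.1), RCCR (50.1), PPH (36.5) and NOL (36.3), whose libraries overlapped, then SGR1 (12.1) and SGR2 (0.891 TPM). In cdk8-1 with sulfate NOL stood before PPH, with libraries that overlapped, NYC1 and PAO overlapped too, and the order was otherwise the same. Without sulfate, NYC1, PAO, PPH and SGR1 headed the list in both genotypes, at 394, 187, 149.6 and 134 TPM in the wild type and 211, 134, 111 and 71.4 TPM in the mutant. NOL was last in both, and SGR2 stood above RCCR in Col-0 (54.3 and 43.7 TPM) but below it in cdk8-1 (28.4 and 45.6 TPM). No other neighbours in these orders overlapped.

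Summed over the 7 genes, transcripts came to 271 to 290.2 TPM in Col-0 with sulfate and 244 to 271 TPM in cdk8-1 with sulfate. Without sulfate they came to 954 to 1003 TPM in the wild type and 605 to 636 TPM in the mutant. NYC1 made up 30.2% to 31.5% of the sum in Col-0 with sulfate and 39.3% to 41.3% without. SGR1 grew from 4.2% to 4.4% of the sum to 13.1% to 14.4% in Col-0, while RCCR shrank from 17.4% to 18.3% to 4.2% to 4.9%.

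**Figure D4:**
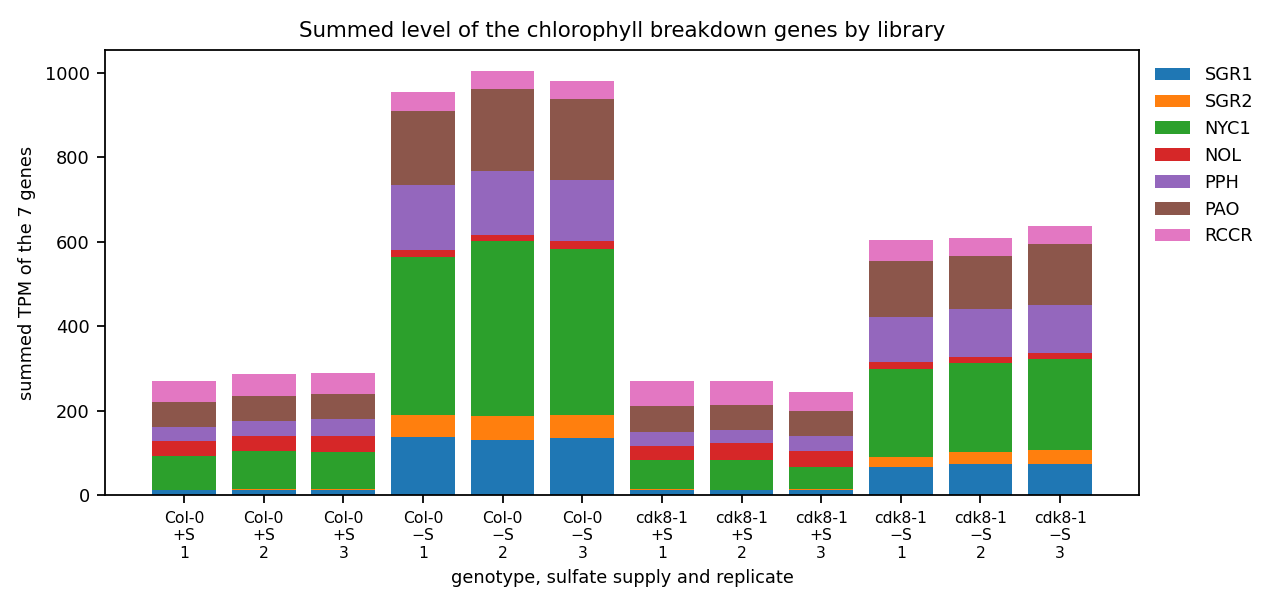
Summed TPM of the 7 genes (vertical axis, from 0) in each of the 12 libraries, split by gene. The libraries without sulfate reach 954 to 1003 TPM in the wild type and 605 to 636 TPM in the mutant, and most of the gap between the genotypes lies in NYC1, SGR1 and PAO.

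Genes of other steps were mixed. Of 9 further genes of the pathway and its side branches, 6 were higher and 2 lower in Col-0 without sulfate, with a median change 0.04 from the median gene (4 and 2 after scaling), beside 56.1% and 28.8% of all tested genes (41.9% and 39.1% after scaling). ABCC3, a vacuolar transporter that carries chlorophyll catabolites, rose from 27.6 ± 4.34 to 1249.7 ± 19.0 TPM in Col-0 and from 27.2 ± 4.53 to 1220.1 ± 54.6 TPM in cdk8-1 (mean ± SD, n = 3; adjusted p = 6.26e-13 and 2.44e-12). CYP89A9, a cytochrome P450 that gives dioxobilin-type catabolites, rose from 16.9 ± 2.64 to 124 ± 9.05 TPM in Col-0 and from 17.7 ± 2.32 to 124 ± 6.88 TPM in cdk8-1. The interaction of these 2 late genes was -0.02 ± 0.17 (adjusted p = 0.956) and -0.06 ± 0.16 (adjusted p = 0.822), where that of SGR1 was -1.0 ± 0.09. ABCC2, a related transporter, rose from 22.4 to 94.4 TPM in Col-0 and from 24.8 to 67.6 TPM in cdk8-1, with an interaction of -0.61 ± 0.18 (adjusted p = 0.0256). That call was lost with quantile scaling (-0.49, adjusted p = 0.0666). It was also lost when Col-0 with sulfate replicate 3, Col-0 without sulfate replicate 1 or cdk8-1 without sulfate replicate 2 or 3 was left out (adjusted p = 0.0555 to 0.0638).

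MES16, an esterase that demethylates fluorescent catabolites, rose in Col-0 from 9.51 ± 1.62 to 23.2 ± 3.82 TPM and fell in cdk8-1 from 16.4 ± 1.28 to 9.04 ± 1.99 TPM (interaction -2.01 ± 0.23, adjusted p = 4.76e-05). The 2 genes that fell in both genotypes were CLH1 and SGRL. CLH1, a chlorophyllase, fell from 49.9 ± 16.5 to 3.52 ± 1.70 TPM in Col-0 and from 24.5 ± 3.85 to 5.95 ± 1.72 TPM in cdk8-1. SGRL (AT1G44000, a STAY-GREEN-like protein) fell from 146 ± 22.1 to 14.9 ± 2.15 TPM in Col-0 and from 169 ± 14.0 to 27.3 ± 5.21 TPM in cdk8-1. SGRL thus moved in the opposite direction to SGR1 and SGR2. The interaction of CLH1 was 1.23 to 1.89 over 20 other settings (limma, adjusted p at most 0.0325). That of SGRL was 0.61 ± 0.21 (adjusted p = 0.0463), and its adjusted p reached 0.108 in other settings. HCAR, the second reductase of the chlorophyll b to a conversion, stood 0.04 from the median gene in Col-0, and TIC55, a ring hydroxylase of the pathway, at -0.01. TIC55 shares 30.8% and CLH2, a second chlorophyllase at 0.609 to 2.04 TPM on average, 71.5% of exon bases with other genes, so their values are uncertain.

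The phytol that PPH releases is a substrate of other enzymes. PES1 and PES2, phytyl ester synthases, rose in Col-0 from 7.61 ± 0.446 to 150.0 ± 8.98 TPM and from 4.40 ± 0.404 to 149 ± 1.40 TPM. In cdk8-1 without sulfate PES1 reached 27.3 ± 4.72 TPM and PES2 86.5 ± 5.56 TPM, with interactions of -2.30 ± 0.18 (adjusted p = 2.73e-06) and -0.58 ± 0.15 (adjusted p = 0.0144; 0.0535 with limma voom). VTE5, phytol kinase, fell from 80.1 ± 6.70 to 33.2 ± 3.11 TPM in Col-0 and from 71.3 ± 3.84 to 47.1 ± 2.97 TPM in cdk8-1. The fourth gene on this list, AT1G78620, was 0.05 from the median gene in Col-0. It went from 49.1 ± 0.497 to 70.4 ± 2.98 TPM there and from 45.9 ± 1.94 to 81.4 ± 2.25 TPM in cdk8-1. Its interaction was 0.27 to 0.40 over 20 other settings (limma, adjusted p at most 0.0348). Of 2 loci that the reference annotates as CAAX protease self-immunity proteins, AT2G35260 fell from 253 ± 11.3 to 40.5 ± 4.26 TPM in Col-0 without sulfate. In cdk8-1 it fell from 219 ± 15.0 to 80.4 ± 4.47 TPM (interaction 1.12 to 1.29 over 20 other settings, adjusted p at most 6.73e-05). AT4G17840 stood at 54.7 ± 2.84 TPM with and 89.7 ± 5.82 TPM without sulfate in Col-0, and at 54.5 ± 8.03 and 60.3 ± 6.66 TPM in cdk8-1. Its interaction was -0.67 to -0.45 over 20 other settings (adjusted p at most 0.0406). The latter locus shares 33.0% of its exon bases with other genes, so its values are uncertain.

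Genes for making and binding chlorophyll went the opposite way. All 13 tested genes of chlorophyll synthesis (a fourteenth, GUN4, shares 73.0% of its exon bases with other genes and stood under the filter) and all 13 antenna genes fell without sulfate in both genotypes, by a median of 3.52 and 4.60 log2 units below the median gene in Col-0 (-3.52 and -4.60) and -2.39 and -2.80 in cdk8-1. Of all tested genes 28.8% were called lower in Col-0 and 24.7% in cdk8-1 (39.1% and 37.1% after scaling). CAO, which makes the chlorophyll b that NYC1 and NOL reduce, averaged 315 ± 13.3 TPM in Col-0 with sulfate and 39.4 ± 4.90 TPM without, against 283 ± 2.75 and 81.7 ± 11.3 TPM in cdk8-1. LHCB1.1, a light-harvesting protein of photosystem II, averaged 13287 ± 275 and 339 ± 9.06 TPM in Col-0 and 12830.4 ± 501 and 1717 ± 337 TPM in cdk8-1. Without sulfate, 12 of 13 synthesis genes and 13 of 13 antenna genes were higher in cdk8-1, whereas 5 of the 7 breakdown genes were lower; of all tested genes 26.3% were higher and 15.0% lower. The interaction was positive and passed in all 13 and all 13 (14.8% of all tested genes), and negative in 4 of 7 (12.2%). The genotypes also differed with sulfate, where 5 of 13 synthesis genes and 3 of 13 antenna genes were called lower in cdk8-1. Of all tested genes 4.84% were called lower there.

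**Figure D5:**
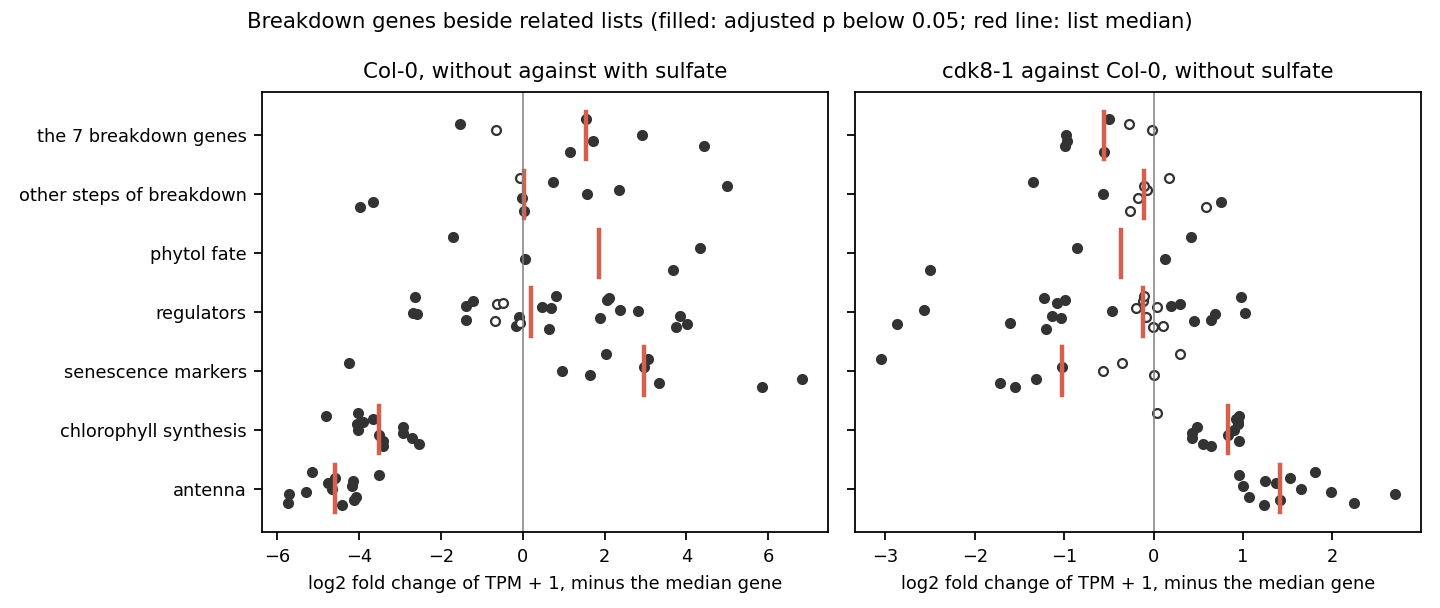
Log2 fold change of TPM + 1 less that of the median gene (horizontal axis) for each tested gene of 7 lists (vertical axis), in Col-0 without against with sulfate (left) and in cdk8-1 against Col-0 without sulfate (right); filled points have an adjusted p below 0.05 on the deposited scale and red lines are list medians. The breakdown genes have a median of 1.55 on the left and -0.55 on the right, where the antenna genes have -4.60 and 1.41.

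Of 25 regulators known to act on these genes or on leaf senescence, 24 were tested; in Col-0 without sulfate 14 were higher and 6 lower (12 and 9 after scaling), with a median 0.19 above the median gene. These shares lie near those of all tested genes, 56.1% and 28.8% (41.9% and 39.1% after scaling). NAC016 and NAC046, NAC factors that promote chlorophyll breakdown in Arabidopsis, rose in Col-0 from 0.597 ± 0.0619 to 28.8 ± 0.886 TPM and from 2.27 ± 0.131 to 30.9 ± 2.52 TPM. In cdk8-1 without sulfate NAC016 reached 30.3 ± 3.04 TPM and NAC046 23.4 ± 1.01 TPM. ORE1, a senescence NAC factor named after its values were seen, stood at 11.6 ± 4.76 and 70.4 ± 5.62 TPM in Col-0 and at 8.36 ± 1.56 and 31.3 ± 2.36 TPM in cdk8-1. JUB1 and VNI2, also on the list, rose in Col-0 from 1.07 ± 0.184 to 39.8 ± 3.67 TPM and from 64.5 ± 6.51 to 374 ± 25.2 TPM. For NAP (14.0 ± 3.78 and 18.3 ± 2.63 TPM) and RD26 (21.6 ± 4.92 and 20.9 ± 2.69 TPM) the Col-0 libraries with and without sulfate overlapped. NAC019 was the regulator with the smallest adjusted p between the genotypes without sulfate, with 81.9 ± 14.4 TPM in the wild type against 11 ± 2.21 TPM in cdk8-1 (-2.79 ± 0.21, adjusted p = 6.11e-07). PIF4, a light-signalling factor, fell from 127 ± 10.3 to 28.2 ± 2.06 TPM in Col-0 and from 101 ± 4.36 to 48.8 ± 7.51 TPM in cdk8-1 (interaction 1.08 ± 0.14, adjusted p = 0.000128). Between the genotypes without sulfate, 7 of the 24 were higher and 10 lower in cdk8-1, beside 26.3% and 15.0% of all tested genes.

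Of 9 tested senescence markers 8 rose and 1 fell in Col-0 without sulfate (56.1% and 28.8% of all tested genes), and 5 were lower in cdk8-1 than in Col-0 without sulfate (15.0% of all tested genes). SRG1 averaged 1.28 ± 0.301 TPM with and 179.8 ± 2.24 TPM without sulfate in Col-0, and 64.2 ± 7.27 TPM without it in cdk8-1. The marker that fell in Col-0 was SEN1, from 359.9 ± 141 to 23.6 ± 3.56 TPM. Without sulfate, SAG101 and SAG21 averaged no lower in cdk8-1 (93.7 ± 3.33 and 909.7 ± 94.1 TPM) than in Col-0 (72.4 ± 0.918 and 852 ± 64.8 TPM). SAG12, the protease often used as a marker of late senescence, averaged 0.277 TPM or less in all 4 groups and was not tested.

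The genes whose pattern over the 12 libraries was most like each member were found by the root mean square difference of log2(TPM + 1) values, each centred on its own mean. For SGR1 these were DELTA-OAT (AT5G46180) at 0.12 and NRT1.7 (AT1G69870) at 0.13, and for SGR2 AT3G18250 at 0.17 and MSS1 (AT5G26340) at 0.18. For NYC1 they were PMT5 (AT3G18830) at 0.15 and AT2G48090 at 0.16, and for NOL HDS (AT5G60600) at 0.08 and PPa6 (AT5G09650) at 0.11. For PPH they were AT5G57035 and AT4G39140, both at 0.08, for PAO AT5G20190 at 0.07 and RABA1d (AT4G18800) at 0.08, and for RCCR AT3G23910 and AT2G17020, both at 0.09. Among the members, NYC1 and PPH were the closest pair (0.25), followed by PPH and PAO (0.28). SGR1 and SGR2 were 0.78 apart, with 510 genes nearer to SGR2 than SGR1 was and 2636 nearer to SGR1 than SGR2 was.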

How the data were processed

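Total RNA of shoots was sequenced with a strand-marking library kit, per the labels' protocols. The submitters' processing notes name STAR 2.7.11b, featureCounts 2.0.8 and DESeq2 1.46, with no role or order, and the genome build is not given in the sources used here. The authors deposited 1 table of TPM per locus and library. In 11 of 12 libraries the values sum to 1000000 and in Col-0 with sulfate replicate 3 to 1004125.4; they were used as deposited. Multiplied by the exon length in RefSeq TAIR10.1 they gave whole reads, within 0.01 read, in all libraries for 25759 of 25908 loci with a value (99.4%).

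Log2(TPM + 1) of the 19127 genes averaging 1 TPM or more was fitted with limma 3.58.1 (trend) in R 4.3.3, with 4 group means over the 12 libraries and 5 contrasts, and adjusted by Benjamini-Hochberg with a threshold of 0.05. No replicate block was used. Ratios within a library were tested with two-sided exact permutation tests. The labels do not say whether replicates are separate cultures, and the p-values then describe only how these samples spread, which may be technical.

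The members and lists were chosen with earlier results of these data known. Named are all members and CDK8, all genes of the breakdown, phytol and CAAX protease lists, up to 4 per other list with the smallest adjusted p in a comparison, and the 2 genes most like each member. CAO, LHCB1.1, ORE1 and SAG12 were named outside or beside that rule for what they do. NAP, RD26, SEN1, SAG21 and SAG101 were added to show listed genes that moved otherwise. Motifs were searched in 250 bases before each gene start. No protein sequences were used here.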

Additional observations from a re-analysis of the deposited data

Results flagged for a closer look

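In 4 of the 7 genes the sulfate response of cdk8-1 differed from that of Col-0 by the direct test of that difference (limma interaction, Benjamini-Hochberg over all tested genes). Of all tested genes 27.0% were called in either direction and 12.2% lower. The SGR2 call was lost with limma voom on recovered reads (adjusted p = 0.123). That of NYC1 was lost with quantile scaling (limma, adjusted p = 0.0686) and in some fits with 1 library left out. The mutant response less the wild-type one, on the log2 scale of TPM + 1, was -1.0 for SGR1, -0.96 for SGR2, -0.45 for NYC1 and -0.49 for PAO. With 3 libraries a group, no group was screened for single outlying values by gap and range.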

How the results depend on the processing

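Each change of the 7 genes was recomputed under 20 or 21 other settings: other added values (0.1 and 5), other filters, 2 scalings, only the 2 groups compared, a replicate block, limma voom on recovered reads, and each library left out. Of the resulting values 683 kept direction and side of the threshold, 10 gained a call, 15 lost one and 20 changed sign, all of the last uncalled values near 0; the cause was not tested. The rises of SGR1, SGR2, NYC1, PPH and PAO and the fall of NOL kept their calls under every setting in both genotypes, as did the lower levels of SGR1, SGR2, NYC1, PPH and PAO in cdk8-1 without sulfate. The labels do not say whether the replicate numbers pair the libraries. Same-numbered residuals correlated at -0.004 to 0.305, over 0.1 in 7 of 18 pairs, and differently numbered ones at -0.24 to 0.125. Whether same-numbered libraries share a source was not tested. With the replicate block RCCR was called lower in Col-0 (-0.19, adjusted p = 0.0434), and no other call on the 7 genes changed. The values of changed sign with sulfate, cdk8-1 against Col-0, were -0.06, -0.04 and -0.06 for PAO with median-of-ratios, quantile scaling and voom, and -0.06, -0.05 and -0.07 for NOL; leaving out 1 library gave -0.02 to 0.03 for PAO, -0.05 to 0.09 for NOL (-0.01 in 2 cases) and -0.06 to 0.20 for SGR2 (-0.03 in another). Without sulfate RCCR gave -0.02 with median-of-ratios, -0.01 with voom and -0.03 to 0.12 with 1 library left out, and its interaction 0.02 with quantile scaling and -0.16 to 0.02 with 1 left out (0.004 and 0.01 among them). Fitting only the 2 groups with sulfate left 0 of the 7 genes called by limma, with 1 at an unadjusted p below 0.05. Taken on TPM + 1, the mean log2 ratio of SGR1 to SGR2 was 2.80 in Col-0 and 2.86 in cdk8-1 with sulfate, and that of NYC1 to NOL 3.78 in cdk8-1 without sulfate. The planned edgeR fit was not run, since the table holds no counts. The 10 to 20 reads of SGR2 with sulfate limit its fold and its interaction.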
